A study of Mus musculus with 23 samples.

Results

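Kainate receptors are glutamate-gated ion channels built from 5 subunit genes, Grik1 to Grik5, and they are escorted by 2 auxiliary membrane proteins, Neto1 and Neto2. These 7 genes were taken by name from the 45706 genes of the count table and followed through every library. Polyadenylated RNA of the mouse hippocampus was sequenced in 23 libraries from 3 neuronal populations. The CamK and Grik libraries were labelled as excitatory pyramidal cells and the SST libraries as somatostatin-positive interneurons, and the series' design text places the excitatory populations in CA1 and CA3. Within each population, libraries were labelled wild-type (WT) or conditional knockout (cKO) for Slm2, which is encoded by Khdrbs3 and regulates splicing. The groups were 4 CamK WT, 3 CamK cKO, 4 Grik WT, 4 Grik cKO, 4 SST WT and 4 SST cKO libraries. Grik4 also drives the Cre recombinase line of the Grik population, so its level there is part of how that population was defined, and it is given against that population as a description with no test. The sources used here do not state age, sex, strain, pooling of animals or how the cells were isolated. Nothing stated that replicates came from separate animals. The p-values therefore set each difference against the spread between libraries, estimated in a single fit over all 6 groups.

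Kainate receptors are tetramers. GluK1, GluK2 and GluK3 (from Grik1, Grik2 and Grik3) can form channels on their own, whereas GluK4 and GluK5 (from Grik4 and Grik5) bind kainate with high affinity and reach the surface in combination with the other subunits. In the hippocampus, kainate receptors are best known at the mossy fibre synapse onto CA3 pyramidal cells, where they give slow currents, and on interneurons, where they regulate excitability and GABA release. Neto1 and Neto2 are CUB-domain proteins that slow the channel's kinetics and alter its affinity for agonist, and Neto1 also associates with NMDA receptors.

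The 5 subunits share a pore loop in which one codon, the Q/R site, sets calcium permeability and rectification. In GluK1 and GluK2 this CAG glutamine codon is a known substrate of RNA editing by ADAR2, encoded by Adarb1, which converts it to an arginine codon. The surrounding 45 coding bases are shown to compare the subunits there, read from the GENCODE M21 transcripts of GRCm38, 5′ to 3′ on the coding strand, with the Q/R codon in capitals.
Grik1: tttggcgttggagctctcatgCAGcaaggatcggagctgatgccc
Grik2: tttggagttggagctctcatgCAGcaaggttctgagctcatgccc
Grik3: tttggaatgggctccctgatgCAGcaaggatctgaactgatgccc
Grik4: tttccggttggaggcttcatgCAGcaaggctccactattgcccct
Grik5: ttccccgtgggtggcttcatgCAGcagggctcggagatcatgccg
The codon lies at chr16:87940542-87940544 in Grik1, chr10:49244329-49244331 in Grik2, chr4:125691207-125691209 in Grik3, chr9:42547623-42547625 in Grik4 and chr7:25022497-25022499 in Grik5, on the minus strand in all but Grik3. The site was located by the peptide MQQG, so a glutamine codon was required by the search, and in every gene it was CAG in the reference. The stretch was found in 6 of 8 coding transcripts of Grik2 and in all those of the other genes. Grik1 and Grik2 had 41 of the 45 bases in common, and each had 36 in common with Grik3. Grik5 had 32 in common with Grik1, 31 with Grik2 and 31 with Grik4, and Grik3 and Grik4 had the fewest, 24. These are genomic bases, and the share of edited transcripts was not analysed here because the files hold counts per gene.

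Depth was high and even, with 87612006 to 112993538 reads in genes per library and a median of 91378465. In all 33 replicate pairs the counts differed beyond sampling noise (chi-square divided by its degrees of freedom was 8.79 to 215). The spread was uneven, from 8.79 to 27.3 within Grik cKO and from 81.3 to 215 within the SST groups. Levels are given as CPM, the reads of a gene per 1000000 reads in genes, with TMM scaling, which corrects library totals for composition. The targeted gene Khdrbs3 had 249 to 294 CPM in CamK cKO against 356 to 413 in CamK WT, and 82.6 to 106 in SST cKO against 123 to 140 in SST WT. In Grik it went against the label, with 396 to 439 CPM in the libraries labelled cKO against 327 to 347 in WT, so "cKO" below means the label alone. At an edgeR adjusted p under 0.05, only the SST difference of Khdrbs3 passed (0.0309, against 0.114 in CamK and 0.499 in Grik). Groups also did not overlap for 6.75%, 4.59% and 2.70% of all genes tested in CamK, Grik and SST. A count over the whole gene does not measure the loss of deleted exons, which the sources used here do not name. The labelled cell types were compared with marker genes. The CA1 markers Wfs1, Fibcd1 and Mpped1 had mean WT levels of 356, 242 and 531 CPM in CamK, against 24.7, 25.2 and 25.5 in Grik and 24.4, 36.5 and 334 in SST. The 4 CA3 markers (Iyd, Coch, Bok, Trps1) summed to 353 CPM in Grik WT, against 72.8 for CamK and 37.5 for SST, although Coch alone was higher in SST. The 7 SST interneuron markers summed to 7200 CPM in SST WT against 108 for CamK and 81.3 for Grik. Most of the SST sum came from Gad1 (2764 CPM), Gad2 (1886) and Slc32a1 (398), which mark GABAergic neurons in general, while Sst (998), Npy (611), Lhx6 (293) and Elfn1 (252) gave the rest. Of the list of 5 other interneuron markers, Pvalb was at 140 CPM and Reln at 276 in SST WT, against 1.05 and 8.72 in CamK and 1.05 and 3.97 in Grik. Vip was at 0.610 CPM in SST WT, and Cck and Lamp5, at 15.3 and 9.18, were lower there than in CamK (365 and 41.7) and Grik (299 and 32.7). The part of cells with Pvalb in the SST values was not tested. Sst itself varied widely in SST WT, at 1720, 159, 554 and 1557 CPM (replicates 1, 2, 3 and 5), against 1010 to 2125 in SST cKO. Without SST WT replicate 2, the lowest, each of the 7 genes kept its direction in the comparisons of WT populations with SST, and each one tested kept its side of the threshold. The 4 dentate markers (Prox1, C1ql2, Dsp, Calb2) summed in WT to 478 CPM for Grik, 191 for CamK and 69.1 for SST. In Grik, Calb2 gave 331 ± 15.6 of this (SD, n = 4). Without Calb2 the other 3 summed to 179 CPM for CamK (97.9 to 259 by library), 146 for Grik (140 to 150) and 31 for SST (27.6 to 38.8). Mean Prox1 was 92.4 CPM (CamK), 82.4 (Grik) and 18.6 (SST), and mean Dsp 40.8, 33.5 and 8.99. The 15 non-neuronal markers had WT sums of 143 to 217 CPM for CamK, 636 to 838 for Grik and 291 to 638 for SST. They therefore moved with the populations, and their part in the differences below was tested only by adding their mean level to the fit. In bulk RNA, fewer cells of a type and less RNA per cell cannot be told apart.

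All 7 genes passed the filter on low counts and were among the 18823 genes tested. Their levels separated the populations. In edgeR's quasi-likelihood test with Benjamini-Hochberg adjustment over all genes tested, at a threshold of 0.05, 5 of the 6 members other than Grik4 differed between CamK and Grik WT, and 6 of 6 differed between CamK and SST and between Grik and SST. Differences of this kind were common, since 42.0% of all genes tested passed between CamK and Grik, 60.1% between CamK and SST and 57.3% between Grik and SST. The median absolute log2 fold change was larger for the 6 members than for all genes tested between CamK and Grik (1.24 against 0.35) and between CamK and SST (1.64 against 0.54), and close to it between Grik and SST (0.55 against 0.51). In the libraries labelled cKO, which share none with the WT comparisons, 6 of these 6 members passed in each comparison, where 35.7%, 56.4% and 57.9% of all genes tested did. In WT the groups did not overlap for 5 of these 6 members between CamK and Grik, 6 of 6 between CamK and SST and 6 of 6 between Grik and SST, beside 38.3%, 53.9% and 52.3% of all genes tested. In cKO the counts were 6, 6 and 5 of 6, beside 43.9%, 53.1% and 53.1%.

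**Figure D1:**
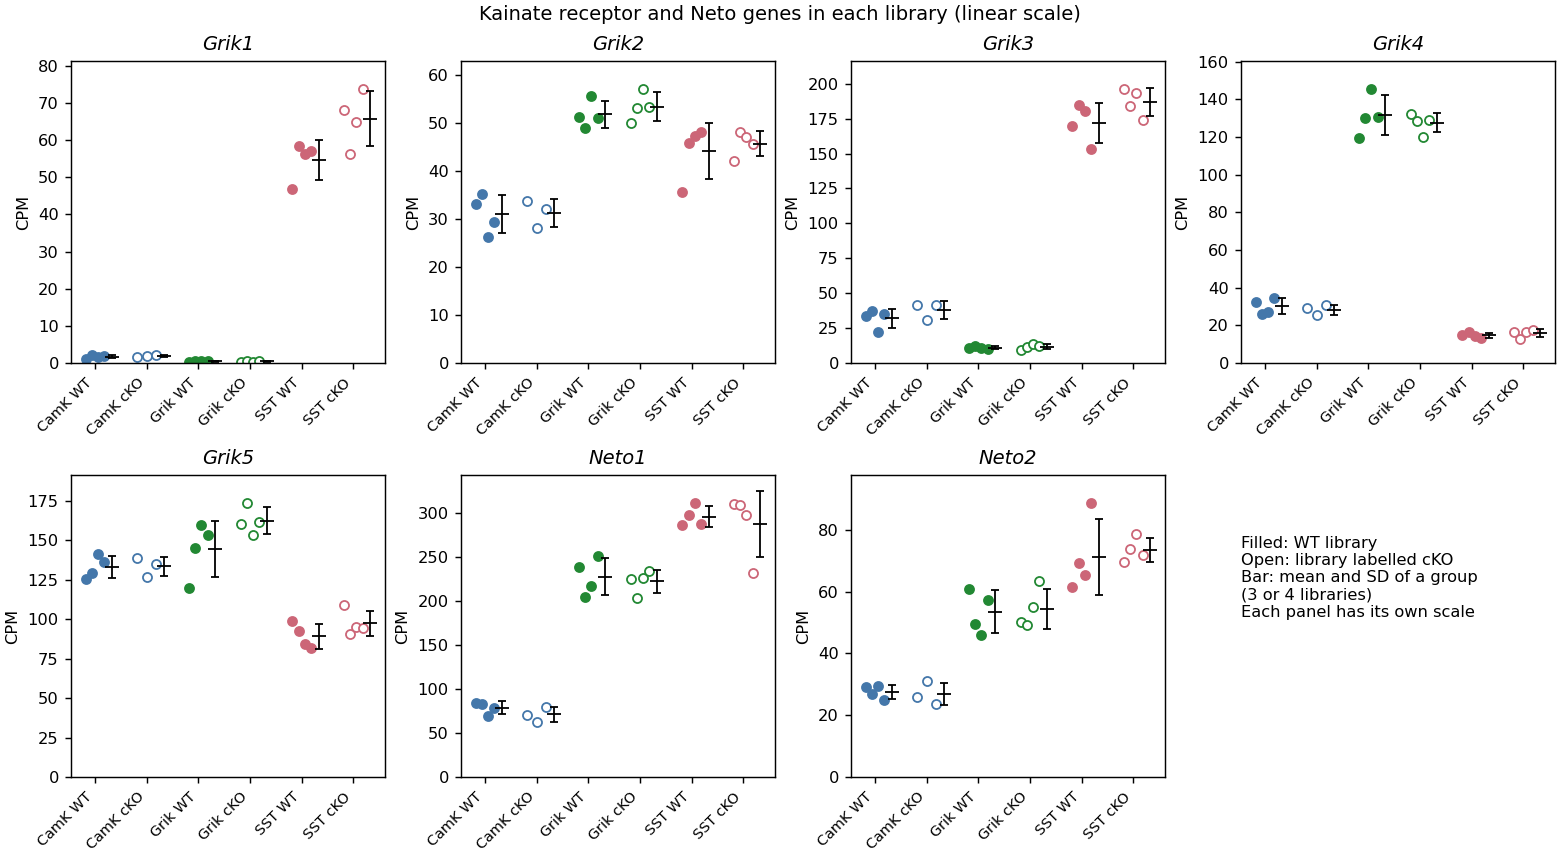
Level of each gene in every library, in CPM on a linear axis with its own scale per panel; points are libraries (filled for WT, open for the cKO label) and bars give the group mean and SD. Grik1 and Grik3 stand highest in SST, Grik4 in Grik, and both Neto genes are lowest in CamK, while WT and cKO points overlap in every pair.

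Among the subunits that can form channels on their own, Grik1 and Grik3 were highest in SST, whereas Grik2 was present in all populations within a 1.67-fold range. Grik1 (ENSMUSG00000022935, chr16:87895900-88290265, minus strand) encodes GluK1, the subunit most often studied on interneurons. In SST WT it stood at 46.8, 58.4, 56.2 and 57.2 CPM. The CamK WT libraries held 1.12, 2.05, 1.55 and 1.99 CPM, and the Grik WT libraries 0.366, 0.614, 0.527 and 0.668. No population overlapped another, and the lowest SST library was far above the highest CamK library. Grik1 differed between CamK and SST by -5.02 on the log2 scale (SE 0.18, edgeR adjusted p 8.04e-17) and between Grik and SST by -6.65 (SE 0.20, edgeR adjusted p 3.39e-18). CamK was above Grik by 1.62 (SE 0.20, edgeR adjusted p 4.97e-07). As shares of the SST WT level, Grik1 stood at 3.07% in CamK and 0.995% in Grik. The 7 SST interneuron markers stood at 0.133 to 3.10% of their SST WT level in CamK and at 0.302 to 1.89% in Grik. In CamK, Elfn1 was at 3.10%, Gad1 at 2.30%, Slc32a1 at 1.55%, Gad2 at 1.23%, Sst at 0.560%, Lhx6 at 0.294% and Npy at 0.133%, so 1 of the 7 was at or above the share of Grik1. In Grik, Gad1 was at 1.89%, Slc32a1 at 0.821%, Sst at 0.815%, Gad2 at 0.693%, Elfn1 at 0.606%, Npy at 0.338% and Lhx6 at 0.302%, so again 1 of the 7 was above Grik1. How much of the Grik1 signal in CamK and Grik came from interneuron RNA was not tested.

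Grik3 (ENSMUSG00000001985, chr4:125490700-125714173, plus strand) encodes GluK3, a subunit of low agonist affinity with a presynaptic role at mossy fibres. SST WT libraries had 170, 185, 180 and 153 CPM. In CamK WT it was 33.7, 37.1, 22.4 and 34.9 CPM, and in Grik WT 10.8, 12.5, 10.5 and 10.1 CPM. The order SST, CamK, Grik was the same as for Grik1, again with no overlap. The log2 fold change was -2.43 for CamK against SST (SE 0.13, edgeR adjusted p 1.20e-13) and -3.97 for Grik against SST (SE 0.14, edgeR adjusted p 5.48e-17). CamK exceeded Grik by 1.55 (SE 0.13, edgeR adjusted p 1.38e-09). Grik was thus the population with the least Grik1 and the least Grik3. Grik3 stood at 18.6% of its SST level in CamK and 6.38% in Grik, where the 7 SST interneuron markers were at 3.10% or less and 1.89% or less, and the part of interneuron RNA in these values was not tested.

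Grik2 (ENSMUSG00000056073, chr10:49094833-49788766, minus strand) encodes GluK2, the main partner of GluK5 in principal cells. Its WT levels were 33.1, 35.2, 26.2 and 29.4 CPM in CamK and 51.3, 49.0, 55.6 and 51.1 in Grik. The SST libraries held 35.6, 45.8, 47.3 and 48.1 CPM. CamK libraries lay below all Grik libraries and below all SST libraries. The log2 fold change was -0.74 for CamK against Grik (SE 0.09, edgeR adjusted p 6.45e-07) and -0.51 for CamK against SST (SE 0.09, edgeR adjusted p 4.45e-05). With the non-neuronal score in the fit, the CamK against SST call was lost in both genotypes (-0.29, edgeR adjusted p 0.20 in WT). Grik and SST, the neighbours at the top, differed by 0.23 (SE 0.09, edgeR adjusted p 0.0413), a call that was lost without SST WT replicate 1 (0.14, edgeR adjusted p 0.20) or without Grik WT replicate 5 (edgeR adjusted p 0.0984).

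The high-affinity subunits went the other way and were highest in the excitatory populations. Grik4 (ENSMUSG00000032017, chr9:42518135-42944493, minus strand) encodes GluK4, a subunit prominent in CA3. It was 120, 130, 146 and 131 CPM in Grik WT, the population whose Cre line it drives. In CamK WT it was 32.7, 26.3, 27.3 and 34.8 CPM, and in SST WT 14.7, 16.3, 14.4 and 13.3 CPM. The 3 populations did not overlap, and CamK stood at 23% and SST at 11.2% of the Grik level. The comparison that did not involve the driver, CamK against SST, gave 1.04 on the log2 scale (SE 0.10, edgeR adjusted p 1.87e-09). Beside this, the pyramidal markers Slc17a7, Neurod6 and Tbr1 stood in SST WT at 5.32%, 3.11% and 5.32% of their highest population and Camk2a at 15.9%, and the part of pyramidal RNA in the SST value of Grik4 was not tested.

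Grik5 (ENSMUSG00000003378, chr7:25009849-25072346, minus strand) encodes GluK5, the high-affinity subunit with the broadest expression in brain. WT libraries held 126, 130, 142 and 136 CPM in CamK and 120, 145, 160 and 153 in Grik. The SST libraries held 98.9, 92.7, 84.2 and 81.6 CPM. All SST libraries lay below all excitatory libraries, while CamK and Grik overlapped. Grik5 was higher in CamK than in SST by 0.58 on the log2 scale (SE 0.08, edgeR adjusted p 1.24e-06) and in Grik than in SST by 0.69 (SE 0.08, edgeR adjusted p 6.89e-08). Between CamK and Grik the WT difference did not pass (-0.12, SE 0.08, 95% interval -0.28 to 0.05, edgeR adjusted p 0.261). It passed without Grik WT replicate 3, the lowest Grik library (-0.19, edgeR adjusted p 0.0477). In the libraries labelled cKO the same comparison passed (-0.28, SE 0.09, edgeR adjusted p 0.0135), with 127 to 139 CPM in CamK and 154 to 174 in Grik. That call was lost without CamK cKO replicate 5 (-0.25, edgeR adjusted p 0.0647) or without Grik cKO replicate 2 (-0.24, edgeR adjusted p 0.0547).

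Both auxiliary genes were lowest in CamK and highest in SST. Neto1 (ENSMUSG00000050321, chr18:86394952-86506718, plus strand) had 84.6, 83.4, 68.9 and 78.9 CPM in CamK WT. The Grik WT libraries held 238, 204, 217 and 251 CPM, and the SST WT libraries 286, 298, 312 and 287. Each population stood clear of the others. CamK differed from Grik by -1.53 on the log2 scale (SE 0.09, edgeR adjusted p 2.77e-12) and from SST by -1.90 (SE 0.09, edgeR adjusted p 9.60e-15). Grik differed from SST by -0.38 (SE 0.09, edgeR adjusted p 0.00101). In the cKO libraries that last difference was as large (-0.37, edgeR adjusted p 0.00122), but the groups overlapped there through SST cKO replicate 7, at 231 CPM. An antisense gene, AC113599.1, shares 2.62% of the Neto1 exon bases, and the strand setting of the counting is not stated in those sources, so reads in those bases cannot be told apart.

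Neto2 (ENSMUSG00000036902, chr8:85636588-85700924, minus strand) followed the same order at lower counts. CamK WT libraries had 29.2, 26.9, 29.3 and 24.8 CPM. Grik WT libraries had 61.0, 49.5, 46.1 and 57.3 CPM, and those of SST WT 61.4, 69.2, 65.3 and 88.7. The Grik and SST ranges came within 1 CPM of each other without overlap. The log2 fold change was -0.96 for CamK against Grik (SE 0.11, edgeR adjusted p 1.87e-07), -1.37 for CamK against SST (SE 0.11, edgeR adjusted p 1.35e-10) and -0.41 for Grik against SST (SE 0.11, edgeR adjusted p 0.00259).

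**Figure D2:**
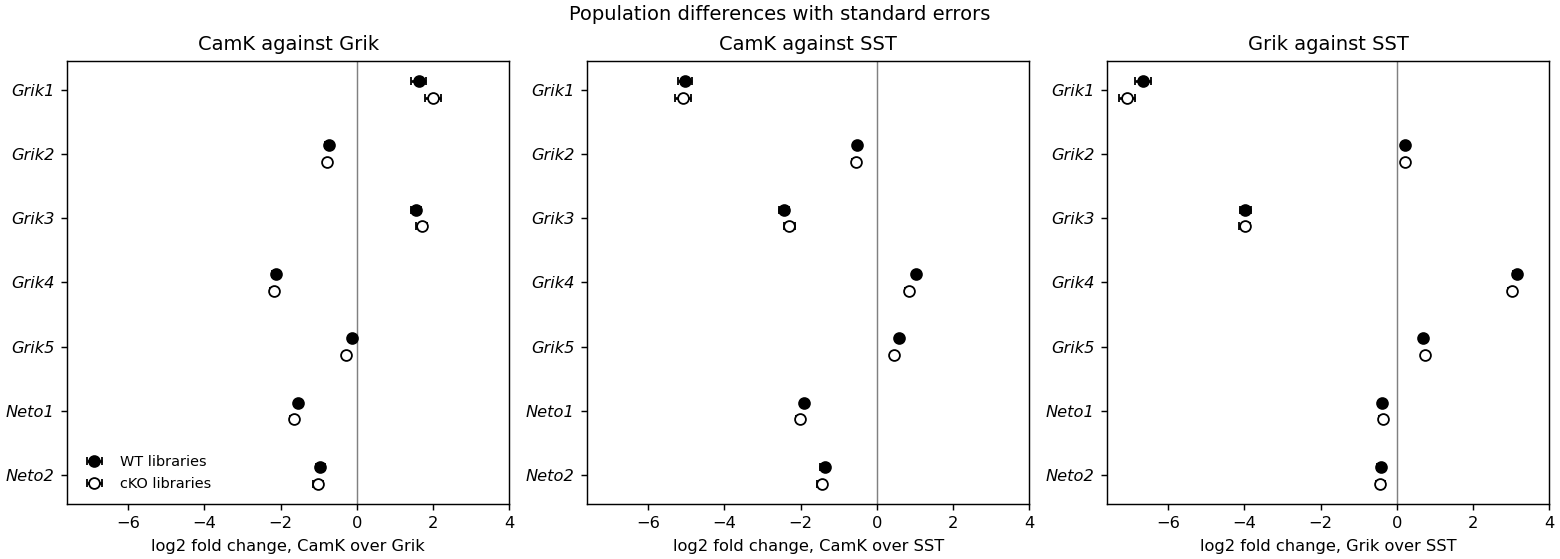
Log2 fold change of each gene between populations (horizontal axis; CamK over Grik, CamK over SST, Grik over SST) with standard errors, filled for WT and open for the libraries labelled cKO. Grik1 spans from 1.62 (CamK over Grik) to -6.65 (Grik over SST) in WT, and the WT and cKO points lie on the same side of 0 for every gene in every panel.

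The libraries labelled cKO gave the same direction for every gene in all 3 comparisons. Grik1 differed by -5.08 for CamK against SST and -7.07 for Grik against SST on the log2 scale (edgeR adjusted p 9.92e-16 and 1.71e-18). For Grik3 these values were -2.29 and -3.99 (edgeR adjusted p 3.11e-12 and 5.02e-17). Grik4 was higher in CamK than in SST by 0.84 (edgeR adjusted p 2.41e-07). Neto1 was lower in CamK than in Grik (-1.64), as was Neto2 (-1.02; edgeR adjusted p 6.32e-12 and 3.76e-07). Grik2 was again lower in CamK than in Grik (-0.77, edgeR adjusted p 1.63e-06). The smallest passing difference was Grik2 in Grik against SST, 0.23 with an edgeR adjusted p of 0.0426, and this call was lost without Grik cKO replicate 3 or 4 or SST cKO replicate 3, 5 or 7 (edgeR adjusted p 0.05 to 0.124).

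Levels of different genes were compared per kilobase of exon (RPKM over the union of annotated exons, computed here from the counts). In CamK WT, Grik5 was first at 25.8 RPKM, followed by Neto1 at 9.45, Grik4 at 5.08, Neto2 at 4.49, Grik3 at 3.57, Grik2 at 2.34 and Grik1 at 0.250. In Grik WT, Grik5 (27.9 RPKM), Neto1 (27.3) and Grik4 (22.1) stood well above Neto2 (8.72), Grik2 (3.90), Grik3 (1.22) and Grik1 (0.0809). In SST WT, Neto1 led at 35.4 RPKM, then Grik3 at 19.2, Grik5 at 17.3, Neto2 at 11.6, Grik1 at 8.13, Grik2 at 3.34 and Grik4 at 2.46. This order depends on the length used. By the full transcript with the longest coding sequence, Grik5 (23.7 RPKM) stood above Grik3 (19.2) in SST. By coding sequence alone, Neto1 was first in all 3 populations.

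As a share of the summed RPKM of the 5 subunits, Grik5 held a mean of 69.7% ± 3.40 (CamK), 50.5% ± 1.89 (Grik) and 34.3% ± 2.63 (SST; SD, n = 4 each) in WT. Grik4 and Grik5 together held 83.4%, 90.5% and 39.2%, where the Grik value includes Grik4, the driver gene that defined that population, at 40.0%. The rest of the SST total was mostly Grik3, at 38.0% ± 1.46, and Grik1, at 16.2% ± 1.71. The same genes held 9.64% and 0.673% in CamK and 2.23% and 0.146% in Grik. Grik2 held 6.33%, 7.11% and 6.64%, shares that overlapped. With Grik4 left out of the sum, which was added after seeing the data, Grik5 held 80.7% in CamK (77.9 to 85.3), 84.2% in Grik (81.8 to 85.4) and 36.1% in SST (33.7 to 40.1), so CamK and Grik overlapped. Grik2 then held 11.9% in Grik (11.1 to 13.7), above 7.34% in CamK (6.16 to 8.26) and 6.98% in SST (5.63 to 8.07). Grik3 held 11.2%, 3.73% and 40.0% and Grik1 0.779%, 0.242% and 17.0% of that sum in CamK, Grik and SST. By the transcript with the longest coding sequence, Grik3 held 27.9% and Grik1 27.1% of the sum of all 5 subunits in SST WT. Grik1 then held 1.2% in CamK and 0.272% in Grik. By coding sequence, Grik2 held 14.3%, 16.1% and 12.2% and Grik5 57.1%, 41.5% and 22.8%, so the shares themselves are tied to the length chosen. These shares are descriptions with no test, and mRNA shares do not give the make-up of assembled receptors.

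**Figure D3:**
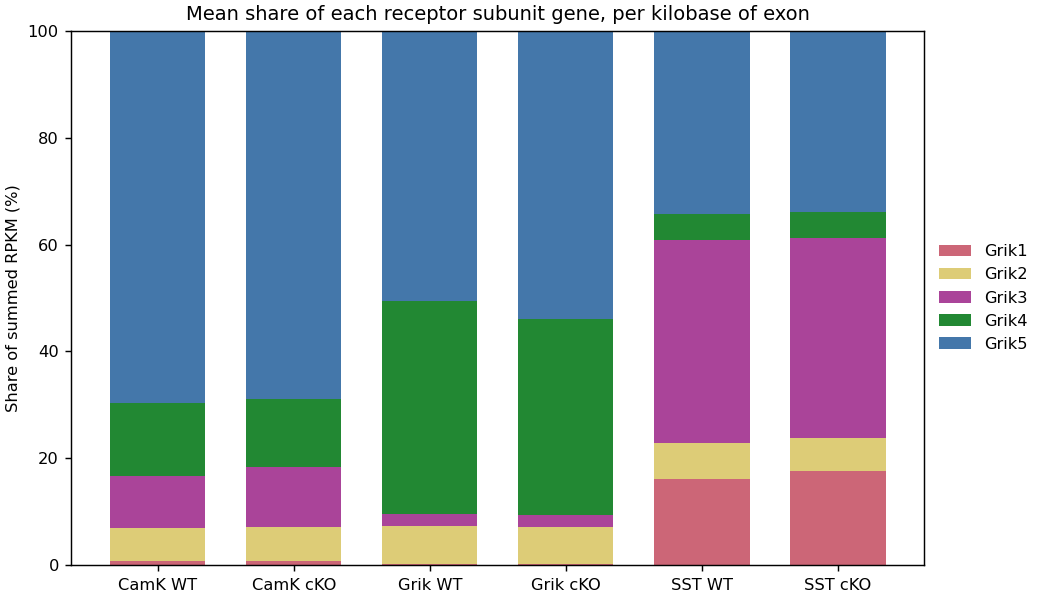
Mean share (%) of each of the 5 receptor genes in their summed RPKM, one stacked bar per group. Grik5 fills most of the CamK bars, Grik4, the driver gene that defined the population, and Grik5 together 90.5% of the Grik WT bar, and Grik3 and Grik1 more than 50% of the SST bars.

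The summed level of the 5 subunits was 37.0 ± 1.06 RPKM (CamK), 55.2 ± 5.17 (Grik) and 50.4 ± 2.55 (SST) in WT (SD, n = 4 each). Every CamK library (36.2 to 38.5) lay below every Grik (48.4 to 60.8) and SST (47.2 to 53.4) library, and the last 2 populations overlapped. The Grik sum includes Grik4, the driver of its Cre line. Without Grik4 the WT means were 31.9 RPKM (CamK, 30.7 to 32.7), 33.1 (Grik, 28.3 to 36.4) and 47.9 (SST, 45 to 50.7), so CamK and Grik overlapped and SST stood above both. By coding sequence, with Grik4, the sums were 79.5, 118 and 133 RPKM. The Neto genes differed more, with sums of 13.9 ± 0.835 (CamK), 36.0 ± 3.47 (Grik) and 47.0 ± 1.99 RPKM (SST), and no overlap. Neto RPKM per receptor RPKM was 0.377 for CamK, 0.658 for Grik and 0.935 for SST. By coding sequence these ratios were 0.831, 1.49 and 1.71. Without Grik4 they were 0.438, 1.1 and 0.983 by exon union, where Grik (0.922 to 1.36) and SST (0.927 to 1.09) overlapped. By coding sequence without Grik4 they were 0.958, 2.44 and 1.78, and Grik (2.08 to 2.92) lay above SST (1.68 to 1.93). CamK was lowest in each case. Neto1 made up 67.7% ± 3.05 (CamK), 75.8% ± 1.47 (Grik) and 75.4% ± 3.43 (SST) of the Neto sum. Set against the other ionotropic glutamate receptors, kainate subunits held 18.9% ± 1.06 of the summed kainate, AMPA and NMDA subunit RPKM in Grik WT, against 12.6% ± 0.657 in CamK and 12.6% ± 0.706 in SST. Without Grik4 the shares were 12.3% in Grik (11.0 to 13.3), 11.0% in CamK (10.3 to 11.6) and 12.1% in SST (11.2 to 12.8), all overlapping, so Grik no longer stood above the others. By coding sequence, with Grik4, Grik (13.1%, 11.9 to 13.9) and SST (12.4%, 11.7 to 13.1) overlapped and CamK was at 8.61%. By coding sequence without Grik4, SST (11.9%, 11.2 to 12.6) lay above Grik (8.41%, 7.53 to 9.14) and CamK (7.56%, 7.13 to 8.1), and the last 2 overlapped. The AMPA subunits summed to 181, 165 and 284 RPKM and the NMDA subunits to 77.1, 71.7 and 67.3 RPKM in CamK, Grik and SST. Of the 4 AMPA and 6 tested NMDA subunits, 1 and 1 passed between CamK and Grik WT, where 42.0% of all genes tested did, 4 and 5 between CamK and SST WT (60.1%), and 4 and 4 between Grik and SST WT (57.3%). In cKO the counts were 1 and 2, 4 and 6, and 4 and 5 (35.7%, 56.4% and 57.9%).

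**Figure D4:**
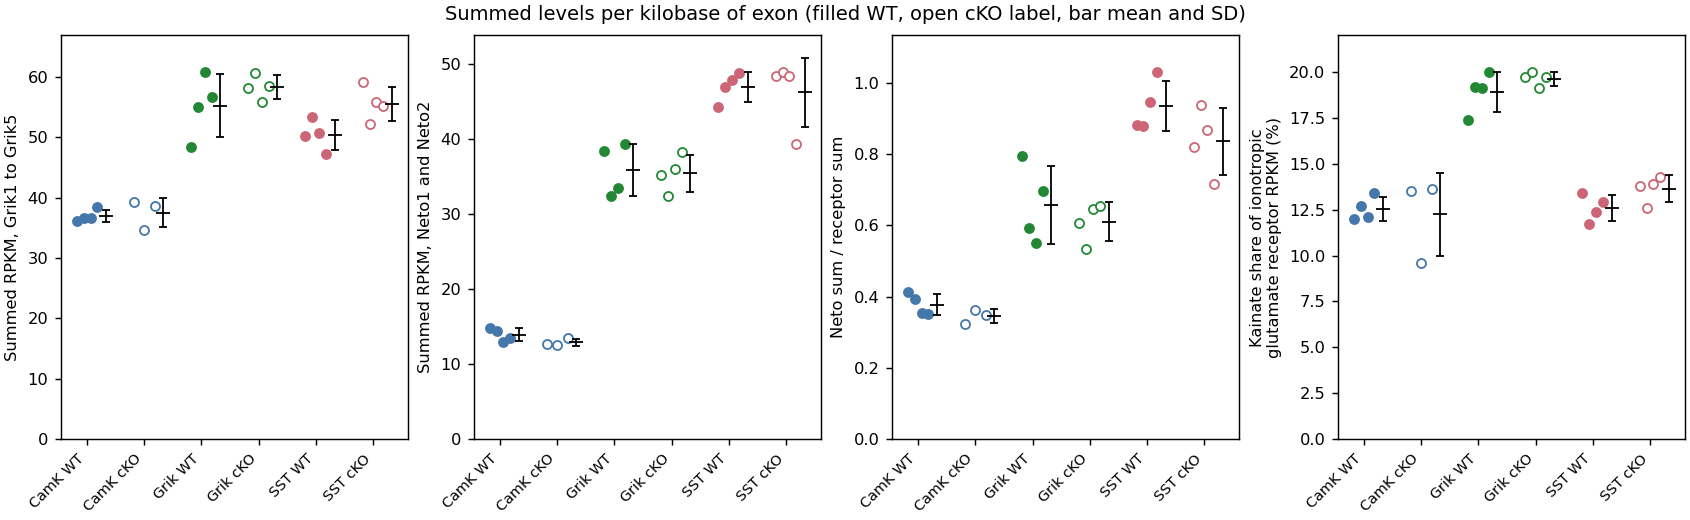
Summed RPKM of the 5 receptor genes and of the 2 Neto genes, the ratio of these sums, and the kainate share (%) of ionotropic glutamate receptor RPKM, by group on linear axes from 0; points are libraries (filled WT, open cKO label) and bars the mean and SD. The Neto sum is 13.9 in CamK WT and 47.0 in SST WT, and by this length the kainate share is highest in Grik, where it includes the driver gene Grik4 (12.3% without it in WT).

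The study's own question was how cKO and WT differ within each population. Beside these effects, the non-neuronal marker sums were 220 to 272 CPM in CamK cKO, above every CamK WT library, 683 to 980 in Grik cKO and 249 to 968 in SST cKO. None of the 7 genes passed in any population, with or without the non-neuronal score in the fit, where 0.0106% of all genes tested (2 of 18823) passed in each of CamK, Grik and SST. At an unadjusted p under 0.05 there was 1 of these 21 effects. The shares of all genes tested were 7.05%, 4.88% and 5.85% (1327, 919 and 1102 genes) in CamK, Grik and SST. The count of 1 is therefore no result about the 7 genes. WT and cKO groups overlapped for every gene in every population, whereas 6.75%, 4.59% and 2.70% of all genes tested did not overlap in CamK, Grik and SST. The effect with the lowest p was Grik5 in Grik, with 161, 174, 154 and 162 CPM in cKO against 120, 145, 160 and 153 in WT. Its log2 fold change was 0.17 (SE 0.08, 95% interval 0.00348 to 0.34, edgeR unadjusted p 0.0458 and adjusted p 0.992), and the groups overlapped.

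The effect with the highest value was Grik1 in SST, with 68.2, 56.2, 64.8 and 73.9 CPM in cKO against 46.8 to 58.4 in WT. The log2 fold change was 0.27 (SE 0.15, 95% interval -0.03 to 0.57, edgeR adjusted p 0.841). Grik3 had values of 0.25 (CamK), 0.10 (Grik) and 0.12 (SST), with edgeR adjusted p of 0.734, 0.992 and 0.901. For Grik2 the 3 values lay between 0.02 and 0.05, and for Neto2 between -0.03 and 0.05. Neto1 had -0.15 in CamK, where cKO libraries held 70.9, 62.8 and 80.1 CPM against 68.9 to 84.6 in WT, and values of -0.04 in both other populations. Grik4 had -0.09, -0.04 and 0.11 in CamK, Grik and SST. The 95% intervals of all 21 effects reached from -0.64 (Grik1 in Grik) to 0.60 (Grik1 in CamK) on the log2 scale, that is from 0.644-fold to 1.52-fold, and those of the 18 effects other than Grik1 from 0.783-fold to 1.45-fold. These are the outermost bounds, and single intervals were narrower, such as -0.194 to 0.225 for Grik2 in CamK.

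**Figure D5:**
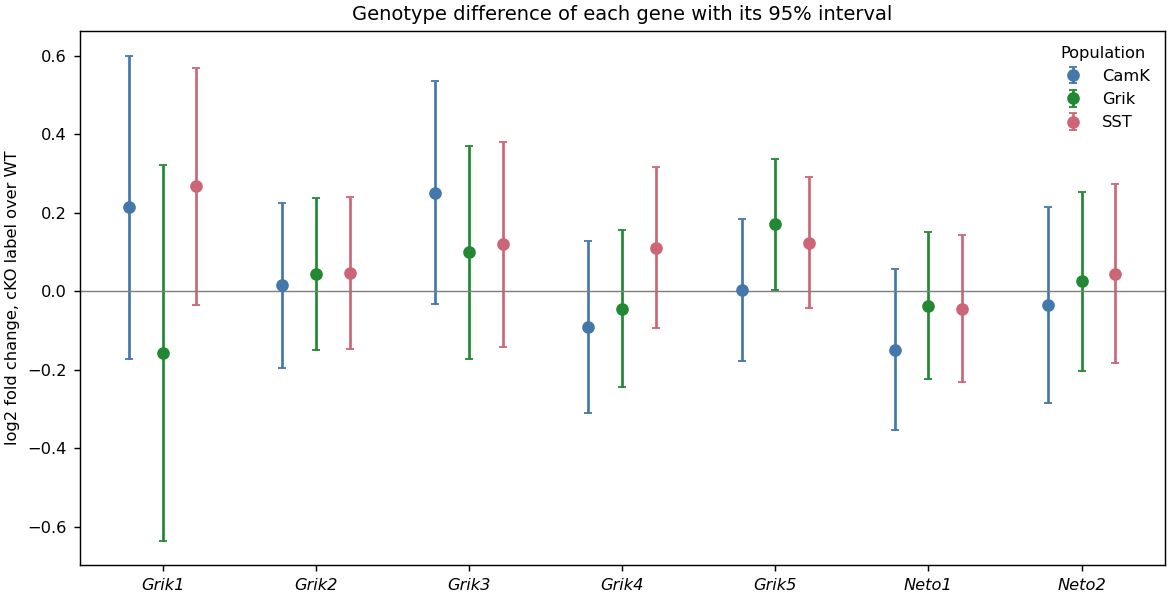
Log2 fold change of the libraries labelled cKO over WT for each gene in CamK, Grik and SST, with 95% intervals. All intervals except that of Grik5 in Grik (0.00348 to 0.34) include 0, and that effect has an adjusted p of 0.992.

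The genotype effects of the populations were then set against each other by their own tests. None of the 7 genes passed in any of these 3 tests, in which 0.00531% (CamK minus Grik), 0% (CamK minus SST) and 0.0106% (Grik minus SST) of all genes tested did. In CamK minus SST, where edgeR gave 0 calls over all genes, 1477 genes had an unadjusted p under 0.05 and DESeq2 called 14. The differences of the 7 genes ran from -0.17 (Grik5) to 0.37 (Grik1) for CamK minus Grik, from -0.20 (Grik4) to 0.13 (Grik3) for CamK minus SST, and from -0.42 (Grik1) to 0.05 (Grik5) for Grik minus SST, on the log2 scale. The smallest unadjusted p was 0.134 and the smallest edgeR adjusted p 0.713.

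Genes whose products bind, traffic or modify kainate receptors were described as a list of 20, of which 19 were tested and Klhl17 was not analysed here. None of the 19 passed between cKO and WT in any population in edgeR, where 0.0106% of all genes tested passed in each. In CamK, Grik and SST, 1, 0 and 2 of the 19 had an unadjusted p under 0.05, beside 7.05%, 4.88% and 5.85% of all genes tested, so these counts are no result about the list. Between the WT populations, 14 of 19 passed for CamK against Grik (7 higher, 7 lower), 15 for CamK against SST (9 higher, 6 lower) and 17 for Grik against SST (10 higher, 7 lower), beside 42.0%, 60.1% and 57.3% of all genes tested. The median log2 fold changes of the list were 0.05, 0.09 and 0.22, beside 0.01, -0.02 and -0.03 for all genes tested.

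Among these, C1ql2 and C1ql3, secreted C1q-like proteins that gather kainate receptors at mossy fibre synapses, were much higher in the excitatory populations. Mean WT levels of C1ql3 were 74.0 ± 13.9 CPM (CamK), 47.6 ± 3 (Grik) and 7.67 ± 1.27 (SST), and those of C1ql2 were 45.4 ± 10.7, 30.2 ± 3.78 and 3.45 ± 0.668 CPM (SD, n = 4 each). Against SST the log2 fold change of C1ql2 was 3.72 in CamK and 3.13 in Grik, and that of C1ql3 was 3.27 and 2.64 (edgeR adjusted p from 1.08e-14 to 4.47e-10). C1ql2 is also a dentate marker. Of the 3 other dentate markers, Prox1 and Dsp, given above, had means in the same order, with CamK and Grik libraries that overlapped, whereas Calb2 was lowest in CamK, at 12.9 CPM against 331 in Grik and 38.0 in SST. Their part in the C1ql2 differences was not tested. Scaffold genes split: Dlg4, which encodes PSD-95, was higher in CamK than in SST by 1.45, whereas Grip1, a PDZ scaffold, was lower in CamK and in Grik than in SST (-1.86 and -1.26). Pick1, another PDZ protein, was lower in Grik than in SST (-0.64). Sdcbp, which encodes syntenin, was higher in Grik than in SST by 1.47 and lower in CamK than in Grik (-0.69). Nrxn3, a presynaptic neurexin, was lower in CamK and in Grik than in SST (-0.99 and -0.83). Each of these values had an edgeR adjusted p of 1.15e-06 or less, and each gene also passed in the same direction in the cKO libraries.

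Between the 2 excitatory populations, Dlg1 (SAP97), Dlg4 and C1ql3 were higher in CamK by 0.63, 0.52 and 0.64, and Cdh2, which encodes N-cadherin, differed by -0.81 in the other direction (edgeR adjusted p 0.000816 or less). Adarb1 encodes the editor of the Q/R codon in Grik1 and Grik2. Its mean WT levels were 180 ± 23.5 CPM (CamK), 310 ± 26.4 (Grik) and 338 ± 34.3 (SST; SD, n = 4 each). Its log2 fold change was -0.78 for CamK against Grik and -0.91 for CamK against SST (edgeR adjusted p 2.49e-07 and 7.84e-09), with -0.76 and -0.94 in the cKO libraries. CamK was therefore the population with the lowest level of both Grik2 and Adarb1, and editing itself was not measured.

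The genes most like each member across the 23 libraries were found by the root mean square (RMS) difference of centred log2 CPM among 12189 named genes, as a description. Elfn1 (RMS 0.38) and Lypd6b (0.42) were nearest to Grik1, whose own RMS around its mean was 2.97. Elfn1 is an SST interneuron marker, with 252 CPM in SST WT against 7.81 (CamK) and 1.52 (Grik). Ostf1 (0.17) and Arhgef26 (0.24) were nearest to Grik4 (own RMS 1.32), and Ostf1 had 10.2, 44.1 and 5.90 CPM in CamK, Grik and SST WT. Nap1l5 (0.21) and Stat5b (0.21) were nearest to Grik3 (own RMS 1.68). Nr2f2 (0.18) and Ankrd29 (0.22) were nearest to Neto1 (own RMS 0.83). Qk (0.16) and Lipa (0.18) were nearest to Neto2 (own RMS 0.59). Grik2 and Grik5 varied little (own RMS 0.34 and 0.33), and their nearest genes were Ptpro (0.12) and Slco3a1 (0.14), and Napa (0.09) and Mknk2 (0.09).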

How the data were processed

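The authors deposited raw read counts for each Ensembl gene, with 1 column per library and 4 summary rows in the form of STAR's read counting, per the file headers. GRCm38, Trimmomatic and STAR are named in the submitters' processing notes. Versions, annotation release and strand setting are not given in the sources used here. The 4 summary rows, 12.4 to 18.4% of reads, were left out. Of 45706 gene IDs, 45143 matched a symbol in GENCODE M21, from which positions, lengths and sequences were taken.

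edgeR 4.0.16 (R 4.3.3) fitted all 23 libraries in 6 groups by quasi-likelihood (filterByExpr, TMM scaling, robust estimation, 17 residual degrees of freedom), with Benjamini-Hochberg adjustment within each comparison. RPKM divides CPM by kilobases of exon union. Likeness used a prior count of 2 and a mean of at least 1 CPM. The fitting function was tested on simulated data. The 7 genes and all lists and tests were chosen with earlier results of these data known. In the partner list, the text names up to 3 genes per direction with the largest change among those passing in WT and cKO without overlap. The alternatives comprised no filter, relative log expression scaling, a filter of 1 CPM in 3 libraries, DESeq2 1.42.0, limma 3.58.1 (voom with sample weights), the compared populations alone, a replicate block, a non-neuronal or sex-gene score as covariate, other lengths, and leaving out each library. Sums without Grik4 were added after seeing the data. One further marker gene is not reported here.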

Additional observations from a re-analysis of the deposited data

Results flagged for a closer look

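Of 35 pairs of a gene and a group of 4 libraries, 1 held a library far from the others, where chance at 1 in 20 gives 1.75. It was Neto1 in SST cKO, where replicate 7 had 231 CPM and the other 3 libraries 297 to 310. Replicate 7 also had the lowest sum of SST interneuron markers in its group, 5920 CPM against 7550 to 8470. Its pyramidal and non-neuronal marker sums, 1030 and 968 CPM, were the highest in the group. Of the other genes highest in SST, Grik3 was also lowest in replicate 7, at 174 CPM against 184.1 to 196.5. Grik1 was highest there, at 73.9 CPM against 56.2 to 68.2. Neto2, at 71.9 CPM, lay within the 69.4 to 78.7 of the other libraries. The part of the mix of cells in the Neto1 value of replicate 7 was not tested. Neto1 did not pass between cKO and WT in SST with or without that library, and its log2 fold change was -0.04 with it and 0.05 without it.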

How the results depend on the processing

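The counts of population differences that follow leave out Grik4 against the Grik population, which is a description with no test. Of 38 tested population differences, 37 passed and 32 of those passed under every alternative; those 37 kept their direction throughout. The exceptions were Grik2 between Grik and SST, which also missed with a filter of 1 CPM (0.20 in WT, 0.21 in cKO), with the replicate block in WT (0.18, edgeR adjusted p 0.145) and in cKO when a sex-gene score was added (0.22), Grik2 between CamK and SST with the non-neuronal score (-0.29 in WT, -0.36 in cKO), and Grik5 between CamK and Grik cKO with the block (-0.29, edgeR adjusted p 0.0546) or the non-neuronal score (-0.33). The cause was not tested. No genotype effect passed in any alternative, and the lowest adjusted p was 0.332. Of these 21 effects near 0, 10 changed sign at least once. With the block they became -0.0239 (Grik5, CamK), 0.0544 (Grik1, Grik), 0.0103 (Neto1, Grik), 0.0541 (Neto1, SST) and -0.0259 (Neto2, SST), with the non-neuronal score -0.0404 (Grik2, CamK), and with limma-voom 0.0225 (Neto1, Grik). Leaving out 1 library gave -0.0499 to 0.0907 (Grik2, CamK), -0.0439 to 0.0898 (Grik2, SST), -0.0867 to 0.00475 (Grik4, Grik), -0.025 to 0.0421 (Grik5, CamK), -0.0848 to 0.00792 (Neto1, Grik), -0.0833 to 0.0466 (Neto1, SST), -0.148 to 0.0468 (Neto2, CamK), -0.0646 to 0.0948 (Neto2, Grik) and -0.019 to 0.17 (Neto2, SST). Each population shares only 2 replicate numbers between genotypes, with correlations of same-numbered deviations from -0.10 to 0.13, so the numbers were not taken to pair libraries.

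Over all genes, the 2 calls between cKO and WT became 13 (CamK), 14 (Grik) and 11 (SST) with DESeq2, and 6, 39 and 0 with limma-voom. With the populations alone they became 1, 5 and 0, with the block 4 in CamK, with the sex-gene score 1 in CamK and 0 in SST, and with no filter or the non-neuronal score 1 in SST. Leaving out 1 library gave 1 to 4, 1 to 9 and 0 to 2. The differences of effects gave 10, 14 and 4 calls with DESeq2 against 1, 0 and 2, and 0 to 2, 0 to 1 and 2 to 3 with 1 library left out. CamK minus Grik gave 0 with the block or the sex-gene score, and CamK minus SST gave 1 with limma-voom and 2 with the non-neuronal score. With the non-neuronal score, the WT calls fell from 7912 to 4163 for CamK against Grik and from 11305 to 7130 for CamK against SST. The fewest reads were those of Grik1, at 0.339 to 0.683 CPM in Grik and 1.12 to 2.15 CPM in CamK, and its genotype effects there had the widest standard errors (0.23 and 0.19).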
